A study of Mus musculus with 18 samples.

Results

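Mouse colon organoids are epithelial cultures grown from colon tissue, and bulk RNA sequencing measured their transcripts in 18 libraries. Distal organoids in differentiation medium (3 libraries) were compared with proximal organoids in differentiation medium (3 libraries), over every gene whose FPKM reached 1 in 3 or more of these 6 libraries. FPKM counts sequenced fragments per length of gene and per size of library. Of the 56748 genes in the table, 11258 met that limit: 10004 protein-coding genes, 441 long non-coding RNA genes and 813 others. Distal and proximal organoids in control medium (3 libraries each), which was ENR with Wnt3a-conditioned medium and keeps organoids proliferating, allowed the same regional comparison in a second condition. Organoids of the mid colon in both media only shared the estimate of the spread. The labels used here give no strain, age or genotype and no composition of the differentiation medium. They do not say whether replicates 1 to 3 came from separate animals, so p-values measure only the spread between these samples.

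Along the gut, the epithelium carries a record of its place on the head-to-tail axis in the Hox genes, transcription factors that sit in clusters and are used in an order that follows their order in the cluster. Genes at the 5′ end of a cluster, the posterior group, are used toward the tail. In the mouse, the surface cells of the distal colon take up sodium, chloride and the last water from the stool under the control of aldosterone, a steroid hormone. Organoids of this kind are cultured without the stroma, immune cells and microbes of the gut.

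The 6 libraries held 12827751 to 19668665 recovered reads. The library size behind the deposited FPKM was not this read total. Its ratio to the recovered reads was 0.757, 0.881 and 0.930 in the distal and 1.04, 0.872 and 0.902 in the proximal libraries. No source used here says how that size was set. Replicates correlated across genes at 0.959 to 0.977 in distal and 0.953 to 0.989 in proximal organoids, and the lowest value was between proximal replicates 1 and 2. Proximal replicate 1 stood apart: the mean log2(FPKM + 1) of 20 proliferation genes was 1.22, 1.25 and 2.10 in the distal libraries, against 3.60, 1.21 and 1.59 in the proximal libraries. Proximal control libraries had 4.03, 3.17 and 2.90, so for this list the library lay among the control libraries. For 26 colonocyte genes it had 6.23, against 6.93 and 6.79 in replicates 2 and 3 and 3.42 to 4.01 in proximal control. Counts below are given with and without proximal replicate 1. Mitochondrial genes took 5.57%, 5.33% and 3.99% of reads in the distal libraries, against 2.46%, 2.47% and 2.79% in the proximal libraries. The share of reads in the 10 top genes was 9.04% to 11.8% in distal and 7.43% to 8.70% in proximal libraries. All 12 epithelial identity genes reached an FPKM of 1. Markers of other cells were at or near 0: 1 of 10 fibroblast genes (Fbln1, at most 1.02 FPKM), 0 of 12 immune, 0 of 8 endothelial and 0 of 12 neural or muscle genes reached an FPKM of 1 in any of the 6 libraries. None of 12 tuft cell genes did, and the highest was Ptgs1 at 0.977 FPKM.

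The regional difference was broad. At an adjusted p below 0.05, which is what "called" means from here on, 3731 of the 11258 genes (33.1%) differed, 1929 (17.1%) higher and 1802 (16.0%) lower in distal organoids. Without proximal replicate 1, 3503 genes (31.1%) were called, 1725 (15.3%) higher and 1778 (15.8%) lower. The genes called both ways numbered 3033, another 698 were called with that library only, and 0 changed sign. The split also followed the scaling: with FPKM rescaled to the summed reads of each library, 1366 genes were higher and 2303 lower, and the median log2 fold change of all genes moved to -0.10, against 0.01 as deposited. Most differences were small, with a median absolute log2 fold change of 0.74 among the called genes. The large ones leaned to the distal side: 192 genes were higher and 131 lower by a log2 fold change of at least 2, and 46 were higher and 14 lower by at least 4. The 3 distal libraries all lay above the 3 proximal libraries for 2265 genes (20.1%) and all below them for 2051 (18.2%). Fold changes are on the log2(FPKM + 1) scale, which understates them for genes with low values. In bulk RNA, fewer cells of a type and less RNA per cell cannot be told apart.

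Posterior Hox genes were among the sharpest differences. Hoxb13, the last gene of the Hoxb cluster (ENSMUSG00000049604, mm39 chromosome 11, 96085142 to 96088273), had 219, 193 and 132 FPKM in the distal libraries, against 0 reads in each proximal library. That is 15750 reads against 0, at least 6244.6-fold higher in distal organoids (floor of 3 reads over the group; adjusted p = 7.77e-14). Hoxa13 (ENSMUSG00000038203, mm39 chromosome 6, 52234674 to 52237788) had 51.5, 54.6 and 50.1 FPKM in the distal libraries, against 0 reads in each proximal library, at least 1952-fold higher (adjusted p = 4.89e-16). Hoxd13 (ENSMUSG00000001819, mm39 chromosome 2, 74498654 to 74501943) had 19.6, 28.5 and 20.7 FPKM in the distal libraries, again with 0 reads in each proximal library, at least 889-fold higher (adjusted p = 1.29e-11). Every distal library had all 3 genes and no proximal library had a read of any.

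The other tested genes of the Hoxb cluster went against Hoxb13. Hoxb6 (ENSMUSG00000000690, mm39 chromosome 11, 96183302 to 96192395) had 0.0525, 0 and 0.184 FPKM in the distal libraries, against 40.2, 39.3 and 33.4 FPKM in the proximal libraries. Its distal values were all near 0 and its proximal values lay close together (log2 fold change -5.16 ± 0.12 SE, adjusted p = 1.03e-13). Hoxb7 had 2 reads over the distal and 1102 over the proximal libraries, a proximal-to-distal FPKM ratio of 471 (95% counting interval 130.1 to 3895). Hoxb8 had 1 read over the distal and 1744 over the proximal libraries, a ratio of 1491 (267 to 58928). Every tested gene from Hoxb3 to Hoxb9 was lower in distal organoids. Hoxb9, counted as a posterior gene by its number, had group means of 4.82 and 51.8 FPKM in distal and proximal organoids (log2 fold change -3.23 ± 0.21 SE). The Hoxa cluster did not split this way: Hoxa5, Hoxa7, Hoxa9, Hoxa10 and Hoxa13 were all higher in distal organoids, and Hoxa10 averaged 10.9 ± 2.7 FPKM in distal organoids with 0 in proximal organoids. These further Hox genes are named to account for the whole family, after their values were seen.

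Of 16 listed posterior Hox genes (paralogue groups 9 to 13) 6 passed the filter, of which 5 were higher and 1, Hoxb9, was lower. Of 23 anterior and central genes 8 passed, of which 2 were higher and 6 lower. The counts were the same without proximal replicate 1, beside shares of 17.1% higher and 16.0% lower over all genes. A gene that reached the limit in 1 group only had to differ, so these and later counts over tested members describe the list and support nothing. Among the genes under the limit, Hoxa11 had 45 reads over the distal and 0 over the proximal libraries, Hoxd10 had 32 and 0, and Hoxd11 had 31 and 0. Hoxc9 to Hoxc13 had 0 reads in all 6 libraries. Hoxb2, at the other end of its cluster, had 0 reads over the distal and 12 over the proximal libraries.

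Non-coding genes at the same cluster differed in the same directions. A pair of short RNA genes without a name in the table lie just past the end of Hoxb13 on chromosome 11: ENSMUSG00002075973 (mm39, 96090577 to 96090656) and ENSMUSG00002076964 (96091002 to 96091137). They had 120 and 157 reads over the distal libraries and 0 over the proximal libraries, at least 47.8-fold and 65.4-fold higher. Whether these reads came from separate short transcripts was not tested. Hoxb5os (96181849 to 96197736), whose span in the table covers Hoxb6, had 0 reads over the distal and 422 over the proximal libraries, at least 119-fold lower in distal organoids. The sources do not settle whether the libraries kept the strand, so reads of Hoxb5os and of Hoxb6 cannot be told apart here. Elsewhere Gm49980 was at 0 reads in distal and 834 in proximal organoids, at least 234-fold lower, and the long non-coding RNA Wincr1 averaged 1.8 ± 1.42 FPKM in distal and 27.6 ± 7.24 FPKM in proximal organoids (SD, n = 3; adjusted p = 0.000244).

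Several transcription factors outside the Hox family were near 0 or lower in distal organoids. Osr2, a zinc finger factor of the odd-skipped family (ENSMUSG00000022330, mm39 chromosome 15, 35296244 to 35303451), had 0 reads in each distal library, against 38.3, 48.1 and 41.8 FPKM in the proximal libraries. With 0 reads against 7168, it was at least 2066.6-fold lower in distal organoids (adjusted p = 1.37e-12). Tbx3, a T-box repressor, had 0.0311, 0 and 0.0437 FPKM in the distal libraries, against 9.13, 7.99 and 7.56 FPKM in the proximal libraries (log2 fold change -3.17 ± 0.11 SE, adjusted p = 5.44e-12). Cdx2, the caudal-type factor that sets intestinal identity (ENSMUSG00000029646, mm39 chromosome 5, 147237615 to 147244080), had 52, 54.7 and 63.9 FPKM in the distal libraries, against 216, 273 and 258 FPKM in the proximal libraries. It was present in all 6 libraries, the groups did not overlap, and the distal level was lower (log2 fold change -2.11 ± 0.24 SE, adjusted p = 8.28e-06). Its relative Cdx1 was not called, with group means of 131 and 90.2 FPKM. Hnf4a, a nuclear receptor of enterocytes, was not called either (399 ± 83.6 FPKM in distal and 315 ± 50.2 FPKM in proximal organoids; log2 fold change 0.33 ± 0.20 SE, adjusted p = 0.229), while its relative Hnf4g, named after its values were seen, had means of 9.18 and 42.3 FPKM and was lower in distal organoids (log2 fold change -2.12 ± 0.22 SE).

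Creb3l3, a membrane-bound factor of the liver and gut, had 17.8, 19.9 and 29.5 FPKM in the distal libraries, against 5.08, 2.14 and 2.04 FPKM in the proximal libraries (log2 fold change 2.56 ± 0.35 SE, adjusted p = 4.76e-05). Of 35 tested gut transcription factors 13 were higher and 11 lower, and 11 and 11 without proximal replicate 1. The shares over all genes were 17.1% higher and 16.0% lower. With Vdr, the vitamin D receptor, and Nr3c2, the mineralocorticoid receptor, on the higher side (132 and 40.6 FPKM for Vdr and 36.3 and 18.4 FPKM for Nr3c2 in distal and proximal organoids, chosen after their values were seen), and Hnf4g on the lower side, nuclear receptors stood on both sides.

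**Figure D1:**
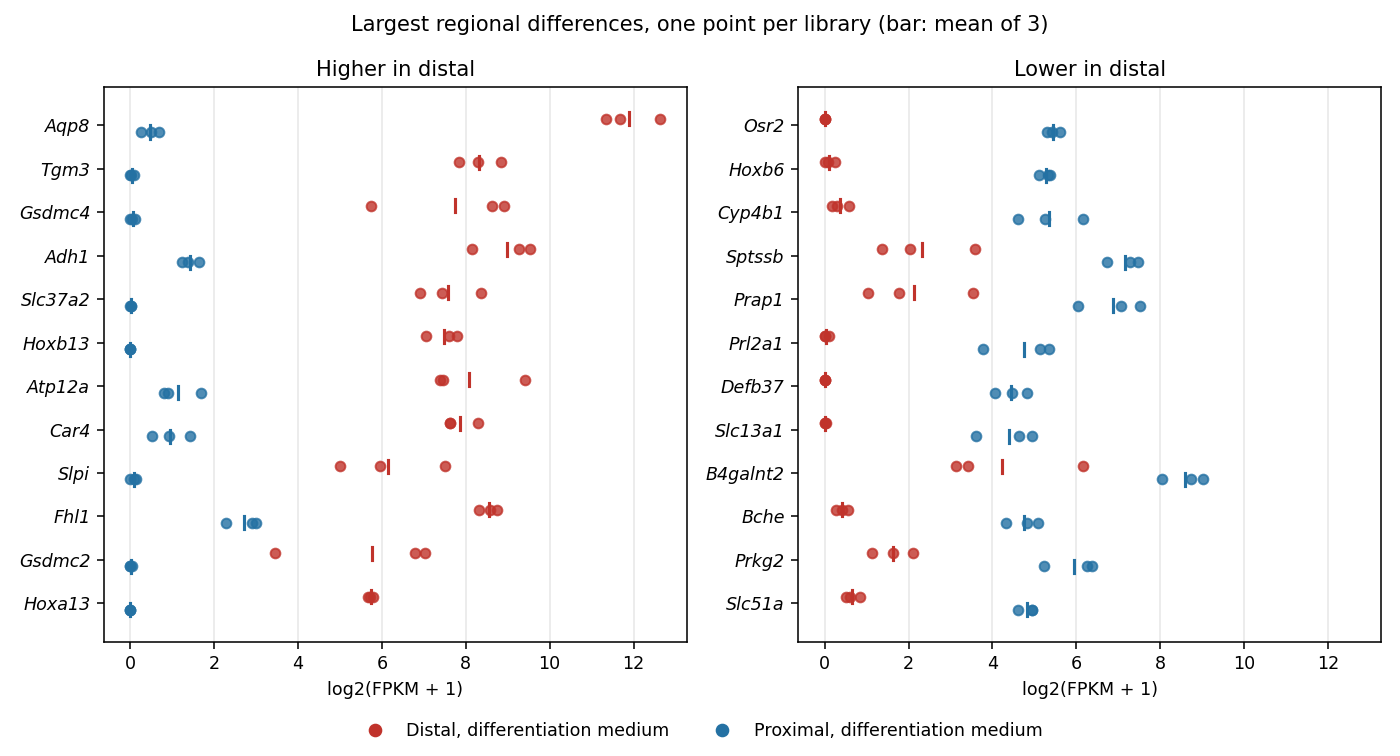
Levels of the 12 genes with the largest rise (left panel) and the 12 with the largest fall (right panel) among protein-coding genes, as log2(FPKM + 1) in each library, with distal points above proximal points in each row and bars at group means. No gene shown has overlapping groups. Some, among them Gsdmc4, Gsdmc2, B4galnt2 and Atp12a, have 1 distal library apart from the other 2.

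The largest rises included genes of the absorbing surface. Aqp8, a water channel of surface colonocytes (ENSMUSG00000030762, mm39 chromosome 7, 123061514 to 123067227), had 6377, 3297 and 2595 FPKM in the distal libraries, against 0.191, 0.404 and 0.606 FPKM in the proximal libraries. It was among the most abundant transcripts of distal organoids and near 0 in every proximal library (log2 fold change 11.41 ± 0.32 SE, adjusted p = 6.38e-13). Car4, a membrane-anchored carbonic anhydrase (ENSMUSG00000000805, mm39 chromosome 11, 84848612 to 84856870), had 311, 197 and 198 FPKM in the distal libraries, against 0.429, 1.66 and 0.889 FPKM in the proximal libraries (log2 fold change 6.90 ± 0.28 SE, adjusted p = 4.81e-11). Atp12a, the colonic proton and potassium pump (ENSMUSG00000022229, mm39 chromosome 14, 56602525 to 56626007), had 676, 165 and 175 FPKM in the distal libraries, against 2.19, 0.735 and 0.870 FPKM in the proximal libraries. Distal replicate 1 was well above the other distal libraries, and every distal value was far above every proximal one (log2 fold change 6.96 ± 0.47 SE, adjusted p = 2.42e-08). Slc37a2, a sugar phosphate exchanger of the endoplasmic reticulum, had 119.7, 327 and 171 FPKM in the distal libraries, against 0.0181, 0 and 0.0170 FPKM in the proximal libraries (log2 fold change 7.55 ± 0.41 SE, adjusted p = 1.41e-09).

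Enzymes and barrier proteins followed. Tgm3, a transglutaminase that crosslinks proteins (ENSMUSG00000027401, mm39 chromosome 2, 129854269 to 129892319), had 456, 313 and 227 FPKM in the distal libraries, against 0, 0.0579 and 0.0136 FPKM in the proximal libraries. With 52641 reads against 4, its groups stood far apart (log2 fold change 8.29 ± 0.33 SE, adjusted p = 4.81e-11). Adh1, an alcohol dehydrogenase that also oxidizes retinol, had 618, 737 and 284 FPKM in the distal libraries, against 1.35, 1.61 and 2.09 FPKM in the proximal libraries (log2 fold change 7.57 ± 0.56 SE, adjusted p = 6.58e-08). Fhl1, a LIM domain protein best known from muscle, averaged 377 ± 56.2 FPKM in distal and 5.73 ± 1.64 FPKM in proximal organoids (SD, n = 3; log2 fold change 5.83 ± 0.22 SE). Slpi, a secreted inhibitor of leukocyte proteases, had 3764 reads over the distal and 3 over the proximal libraries, an FPKM ratio of 1467 (95% counting interval 502 to 7119). Gsdmc4 and Gsdmc2, gasdermins that form membrane pores when cleaved, had 52.1, 477 and 392 FPKM and 9.97, 129 and 109 FPKM in the distal libraries, against at most 0.0810 and 0.0260 FPKM in the proximal libraries. Distal replicate 1 was the lowest for both by a wide margin. The Gsdmc genes are near-identical copies of each other, so how their reads were divided is uncertain.

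The largest falls were in a mixed group of enzymes, transporters and secreted proteins. Cyp4b1, a cytochrome P450 (ENSMUSG00000028713, mm39 chromosome 4, 115481922 to 115504920), had 0.502, 0.134 and 0.225 FPKM in the distal libraries, against 23.6, 70.6 and 37.4 FPKM in the proximal libraries. Proximal replicate 1 was the lowest proximal library and still far above the distal ones (log2 fold change -4.99 ± 0.27 SE, adjusted p = 1.34e-09). Sptssb, a small subunit of the enzyme that starts sphingolipid synthesis, had 1.58, 3.08 and 10.9 FPKM in the distal libraries, against 106, 155 and 177 FPKM in the proximal libraries (log2 fold change -4.84 ± 0.47 SE, adjusted p = 1.29e-06). Prap1, a secreted proline-rich protein of the gut epithelium, had 10.6, 2.44 and 1.05 FPKM in the distal libraries, against 64.8, 183 and 132 FPKM in the proximal libraries (log2 fold change -4.76 ± 0.49 SE, adjusted p = 2.63e-06). Again the groups of all 3 genes did not overlap. Prl2a1, a member of the prolactin family, had 1 read over the distal and 1182 over the proximal libraries, a proximal-to-distal FPKM ratio of 1011 (95% counting interval 181 to 39949). Slc13a1, a sodium and sulfate cotransporter, had 1 read against 7575, a ratio of 6476 (1162 to 255839). Defb37, a beta-defensin, had 0 reads in each distal library, against 21.1, 27.2 and 15.7 FPKM in the proximal libraries, at least 100.2-fold lower in distal organoids. B4galnt2, which adds a sugar that makes a blood group antigen, had 70.9, 9.69 and 7.77 FPKM in the distal libraries, against 262, 515 and 428 FPKM in the proximal libraries. Distal replicate 1 was well above the other distal libraries but below every proximal one (log2 fold change -4.36 ± 0.62 SE, adjusted p = 6.71e-05). Bche, butyrylcholinesterase, averaged 0.331 ± 0.137 FPKM in distal and 26.4 ± 6.88 FPKM in proximal organoids (SD, n = 3; log2 fold change -4.34 ± 0.18 SE).

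Promoter sequences of these genes, from RefSeq on GRCm38.p6, are shown to set the letters of a strong distal and a strong proximal pair side by side. They were matched by gene symbol to 8053 of the 10004 tested protein-coding genes, and no coordinate is carried over to the build of the expression table. Each line gives the 150 bases before the annotated start, 5′ to 3′ on the gene's own strand, with Aqp8 and Tgm3 from the distal side and Prap1 and Slc51a from the proximal side. Capitals mark the motif TATAAA, the motif AGATAA, the motif CAAAGTC or the motif AGGTCA on either strand. On the other strand AGGTCA reads as TGACCT, while CAAAGTC reads as GACTTTG.
Aqp8, chr7:123462144-123462293, plus strand: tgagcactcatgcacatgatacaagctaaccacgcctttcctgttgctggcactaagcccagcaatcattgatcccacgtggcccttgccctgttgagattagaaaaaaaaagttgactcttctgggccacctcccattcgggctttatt
Tgm3, chr2:130012190-130012339, plus strand: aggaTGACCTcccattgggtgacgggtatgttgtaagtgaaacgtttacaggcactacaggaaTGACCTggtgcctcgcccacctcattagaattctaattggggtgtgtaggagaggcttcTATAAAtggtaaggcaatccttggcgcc
Prap1, chr7:140093246-140093395, plus strand: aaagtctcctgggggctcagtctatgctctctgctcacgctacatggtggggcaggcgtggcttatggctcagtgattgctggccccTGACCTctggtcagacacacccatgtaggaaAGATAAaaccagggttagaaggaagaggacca
Slc51a, chr16:32487880-32488029, minus strand: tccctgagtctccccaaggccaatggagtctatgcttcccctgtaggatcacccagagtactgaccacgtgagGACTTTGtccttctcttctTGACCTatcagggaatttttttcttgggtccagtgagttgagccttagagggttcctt
In Tgm3 the window holds TATAAA and AGGTCA at 2 places, in Prap1 AGATAA and AGGTCA, in Slc51a CAAAGTC and AGGTCA, and in Aqp8 none of the 6 motifs searched. These 4 windows do not stand for the other largest changes. The same window of Car4, Slpi, Fhl1, Hoxa13, Cyp4b1, Sptssb, Prl2a1, B4galnt2 and Bche also held none of the 6. Those of Adh1 and Slc37a2 held a motif other than AGGTCA.

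Over 250 bases before the start and on both strands, AGGTCA, the core element of many nuclear receptors, was in 10.5% of 8053 tested promoters, in 12.8% of 1393 promoters of genes higher in distal organoids and in 9.99% of 1271 promoters of genes lower. Among genes changed by at least log2 of 2 it was in 21.7% of 129 higher and 9.76% of 82 lower promoters. TATAAA, the core of the TATA box, was in 20.9% of those 129 and 13.4% of those 82, against 6.31% of all. TTTATG, an element bound by caudal-type factors, was in 8.53% and 17.1%, against 5.59% of all. CAAAGTC, part of the HNF4 element, was in 7.75% and 11%, against 3.32% of all, and TGANTCA, the AP-1 site, in 5.43% and 12.2%, against 4.42%. AGATAA, the GATA element, was in 9.30% and 7.32%, against 5.46%. The strongly changed promoters also held fewer CG pairs, with a median of 5 in the higher and 8 in the lower promoters, against 16 in all promoters. These are shares of letter matches with no test, and base composition differs between the sets.

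**Figure D2:**
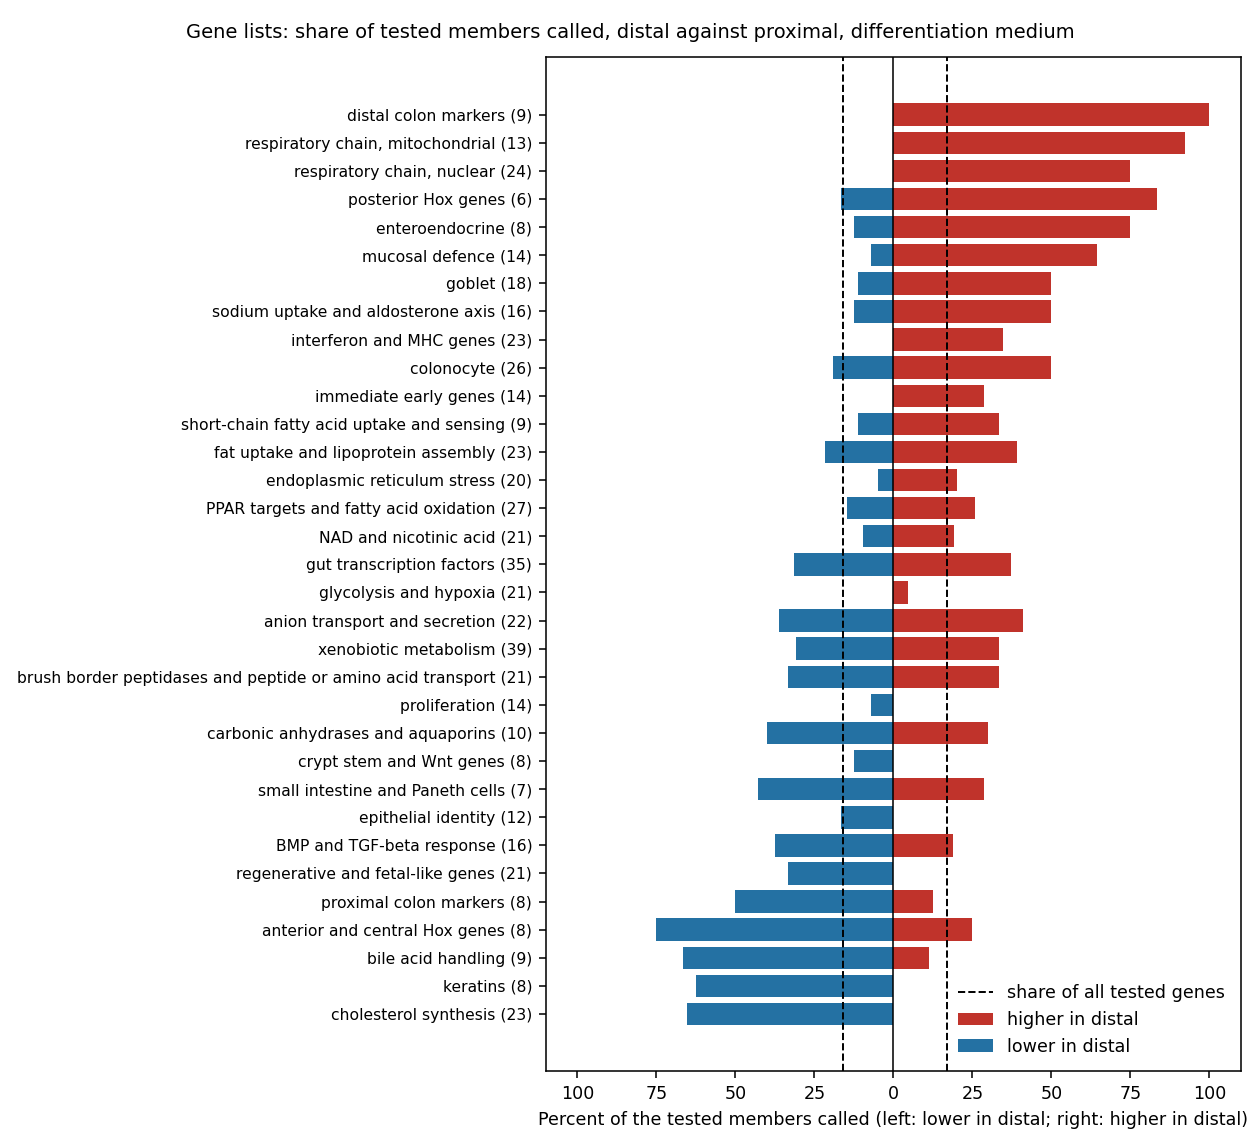
Share of the tested members of each gene list (number in brackets) that were called higher (right) or lower (left) in distal than in proximal organoids in differentiation medium; dashed lines mark 17.1% and 16.0%, the shares over all tested genes. Distal markers and respiratory chain genes lie to the right, cholesterol synthesis, keratins and bile acid genes to the left, and many metabolic lists extend both ways.

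Listed distal colon markers were higher in distal organoids where tested, and listed proximal colon markers were lower in part. All 9 tested of 12 listed distal colon markers were called higher in distal organoids, against 17.1% of all genes. These were chosen with such differences known. Hoxb13, Hoxa13, Hoxd13 and Aqp8 among them passed the filter through the distal libraries only, so this count does not support the labels. Of 8 tested proximal markers 4 were lower in distal organoids, against 16.0% of all genes. They were Osr2, Fabp2, Slc10a2 and Gal3st2. Fabp2, the fatty acid binding protein of enterocytes, had 11.4, 10.1 and 16.6 FPKM in the distal libraries, against 103, 195 and 222 FPKM in the proximal libraries (log2 fold change -3.62 ± 0.29 SE, adjusted p = 1.68e-07). Car1, an abundant cytosolic carbonic anhydrase, had 13862, 10898 and 13564 FPKM in the distal libraries, against 12430.2, 22121 and 22394 FPKM in the proximal libraries. Proximal replicate 1 lay within the distal range, so the groups overlapped, and Car1 was not called (log2 fold change -0.53 ± 0.42 SE, adjusted p = 0.361). Mptx1, a pentraxin listed as a proximal marker, went the other way with 12, 10.9 and 12.8 FPKM in the distal libraries and 1 read in all over the proximal libraries, an FPKM ratio of 442 (95% counting interval 78.9 to 17508).

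Surface and secretory cells of the epithelium differed in parts of their programmes. Of 26 colonocyte genes 13 were higher and 5 lower in distal organoids, and 12 and 5 without proximal replicate 1. These and the goblet counts below are read against 17.1% higher and 16.0% lower over all genes. Saa1, an acute phase protein that the epithelium secretes, had 664, 267 and 252 FPKM in the distal libraries, against 3.16, 15.9 and 6.69 FPKM in the proximal libraries (log2 fold change 5.45 ± 0.50 SE, adjusted p = 6.75e-07). Guca2a and Guca2b, the hormones guanylin and uroguanylin, were on the lower side, with log2 fold changes of -1.91 ± 0.31 SE for Guca2a and -3.30 ± 0.36 SE for Guca2b, and were named after their values were seen. Krt20, the keratin of mature surface cells, had 848, 544 and 577 FPKM in the distal libraries, against 519, 827 and 743 FPKM in the proximal libraries. The groups overlapped and Krt20 was not called (log2 fold change -0.087 ± 0.51 SE, adjusted p = 0.916). Of 18 goblet cell genes 9 were higher and 2 lower, and 7 and 3 without proximal replicate 1. Spink4, a secreted protease inhibitor of goblet cells, had 141, 68.4 and 79 FPKM in the distal libraries, against 6.44, 9.2 and 10.2 FPKM in the proximal libraries (log2 fold change 3.29 ± 0.33 SE, adjusted p = 1.8e-06). Klk1, a kallikrein protease, averaged 31.7 ± 7.58 FPKM in distal and 3.01 ± 1.3 FPKM in proximal organoids, and Clca1, a mucus-processing metalloprotease, averaged 379 ± 75.1 FPKM in distal and 109.9 ± 39.6 FPKM in proximal organoids (SD, n = 3; log2 fold changes 3.06 ± 0.29 and 1.83 ± 0.49 SE). Muc2, the main mucin, was not called, with 21, 18.8 and 21.2 FPKM in the distal libraries, against 20.1, 27.3 and 26.9 FPKM in the proximal libraries and overlapping groups (adjusted p = 0.608).

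Enteroendocrine transcripts were higher in distal organoids for 6 of 8 tested genes and lower for Sct, and for 5 without proximal replicate 1. The shares over all genes were 17.1% higher and 16.0% lower. Tac1, the precursor of substance P, had 6.33, 18.2 and 12.3 FPKM in the distal libraries, against 0.0177, 0.141 and 0.0663 FPKM in the proximal libraries (log2 fold change 3.52 ± 0.31 SE, adjusted p = 5.42e-07). Pyy, the peptide YY of L cells, had 39.3, 24 and 51.8 FPKM in the distal libraries, against 4.01, 4.3 and 4.91 FPKM in the proximal libraries (log2 fold change 2.80 ± 0.37 SE, adjusted p = 3.08e-05). Insl5, a relaxin-like hormone of colonic L cells, had 145 reads over the distal and 1 over the proximal libraries, an FPKM ratio of 170 (95% counting interval 30.0 to 6744). No proximal library reached the lowest distal library for any of these 3 hormones. In the fit of the 6 libraries alone 3 of the 8 genes were called higher.

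Of 16 tested genes of sodium uptake and the aldosterone axis 8 were higher and 2 lower in distal organoids, and 7 and 2 without proximal replicate 1, against 17.1% higher and 16.0% lower over all genes. Fxyd4, a regulator of the sodium pump, had 31.2, 16.1 and 16.1 FPKM in the distal libraries, against 0, 0.122 and 0.115 FPKM in the proximal libraries (log2 fold change 4.29 ± 0.23 SE, adjusted p = 1.71e-09). Hsd11b2, which shields the mineralocorticoid receptor from glucocorticoids, had 46.4, 21.6 and 12.3 FPKM in the distal libraries, against 1.64, 1.65 and 2.27 FPKM in the proximal libraries (log2 fold change 3.10 ± 0.31 SE, adjusted p = 1.75e-06). Slc9a3, the apical sodium and proton exchanger, had 43.1, 28.4 and 22.8 FPKM in the distal libraries, against 2.52, 5.64 and 4.1 FPKM in the proximal libraries (log2 fold change 2.67 ± 0.32 SE, adjusted p = 1.37e-05). All 3 were higher in every distal than in any proximal library. Scnn1b, a subunit of the epithelial sodium channel, stayed under the limit and had 55 reads over the distal and 0 over the proximal libraries, while its partner Scnn1g had 244 and 1.

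Of 22 genes of anion transport and secretion 9 were higher and 8 lower, with and without proximal replicate 1. Over all genes the shares were 17.1% higher and 16.0% lower. Slc26a3, the chloride and bicarbonate exchanger of the colon surface, had 538, 661 and 467 FPKM in the distal libraries, against 15.1, 39.3 and 39.5 FPKM in the proximal libraries (log2 fold change 4.21 ± 0.63 SE, adjusted p = 0.000111). On the lower side, Prkg2, the cGMP-dependent kinase that acts on the chloride channel CFTR, had 2.09, 1.18 and 3.33 FPKM in the distal libraries, against 36.3, 82.5 and 75.6 FPKM in the proximal libraries (log2 fold change -4.33 ± 0.27 SE, adjusted p = 7.98e-09). Cftr itself, named after its values were seen, had means of 0.777 and 6.43 FPKM in distal and proximal organoids and was called lower. Gucy2c, the receptor of guanylin that feeds this kinase, was not called, with means of 67.9 and 95.3 FPKM. Among 10 carbonic anhydrases and aquaporins 3 were higher (Aqp8, Car4 and Car2) and 4 lower (Car12, Car8, Car13 and Aqp11). Car12, a membrane carbonic anhydrase, had 1.97, 2.43 and 2.34 FPKM in the distal libraries, against 19.5, 34.3 and 35.1 FPKM in the proximal libraries (log2 fold change -3.19 ± 0.24 SE, adjusted p = 6.19e-08), against the direction of Car4.

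Among carriers of bacterial fatty acids, the transcript of the sodium-coupled Slc5a8, which also carries nicotinate, had 23, 47 and 15 FPKM in the distal libraries, against 3.27, 4.69 and 3.58 FPKM in the proximal libraries (log2 fold change 2.46 ± 0.34 SE, adjusted p = 5.15e-05). Slc16a1, the proton-coupled monocarboxylate carrier, had 214, 286 and 183 FPKM in the distal libraries, against 60.4, 105 and 108 FPKM in the proximal libraries (log2 fold change 1.33 ± 0.22 SE, adjusted p = 0.000215). Of 9 tested genes of this list 3 were higher and 1 lower, and the call of Slc16a5, another monocarboxylate carrier, was lost without proximal replicate 1 (adjusted p = 0.189). The series title names nicotinic acid, and of 21 tested genes of nicotinic acid and NAD metabolism 4 were higher and 2 lower, or 3 and 2 without proximal replicate 1, a share near the 33.1% of all genes called. Naprt, the enzyme that commits nicotinic acid to the making of NAD, had 60.3, 35 and 26.5 FPKM in the distal libraries, against 18.5, 37.8 and 27.3 FPKM in the proximal libraries. Its groups overlapped and it was not called (log2 fold change 0.50 ± 0.30 SE, adjusted p = 0.214). Cd38, an enzyme that consumes NAD, was not called (102 ± 23.4 FPKM in distal and 73.4 ± 18.3 FPKM in proximal organoids; SD, n = 3; adjusted p = 0.208). Among the 6 called genes were a pair of enzymes that make NAD from its mononucleotide, in opposite directions. Nmnat3, the mitochondrial form, had 4.1, 2.89 and 2.02 FPKM in the distal libraries, against 0.783, 0.750 and 0.676 FPKM in the proximal libraries (log2 fold change 1.17 ± 0.15 SE, adjusted p = 2.56e-05). Nmnat2, the Golgi form, had 0.249, 0.167 and 0.526 FPKM in the distal libraries, against 1.49, 3.73 and 3.71 FPKM in the proximal libraries (log2 fold change -1.55 ± 0.28 SE, adjusted p = 0.000626). The nicotinic acid receptor Hcar2 was under the limit, with 6 reads over the distal and 1 over the proximal libraries.

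Most sterol synthesis and bile acid genes that were called were lower in distal organoids. Of 23 cholesterol synthesis genes 0 were higher and 15 lower, and 0 and 14 without proximal replicate 1. Their median log2 fold change was -0.67, against 0.01 over all genes tested. The shares over all genes were 17.1% higher and 16.0% lower. Lss, which closes the sterol rings (ENSMUSG00000033105, mm39 chromosome 10, 76367422 to 76392972), had 9.82, 9.01 and 10.2 FPKM in the distal libraries, against 30.4, 28.9 and 29.7 FPKM in the proximal libraries (log2 fold change -1.52 ± 0.21 SE, adjusted p = 6.09e-05). The distal values of Lss lay in a narrow band well below the proximal ones. Of 9 bile acid genes 1 was higher and 6 lower, with and without proximal replicate 1. Slc51a, a subunit of the basolateral bile acid exporter (ENSMUSG00000035699, mm39 chromosome 16, 32293322 to 32306697), had 0.419, 0.794 and 0.520 FPKM in the distal libraries, against 29.6, 29.6 and 23.3 FPKM in the proximal libraries (log2 fold change -4.17 ± 0.13 SE, adjusted p = 2.64e-12). Nr1h4, the bile acid receptor FXR, had 20, 20.1 and 12.6 FPKM in the distal libraries, against 81.1, 62.1 and 73.1 FPKM in the proximal libraries (log2 fold change -2.0 ± 0.42 SE, adjusted p = 0.0018). Baat, which joins bile acids to taurine or glycine, was the one called higher (5.71 ± 2.73 FPKM in distal and 0.449 ± 0.295 FPKM in proximal organoids; SD, n = 3; log2 fold change 2.14 ± 0.28 SE).

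Genes of fat handling were called in both directions, in lists whose shares are read against 17.1% higher and 16.0% lower over all genes. Of 23 genes of fat uptake and lipoprotein assembly 9 were higher and 5 lower, and 7 and 5 without proximal replicate 1. Apob, the backbone of chylomicrons, had 18.7, 42.1 and 49.6 FPKM in the distal libraries, against 3.5, 3.51 and 4.08 FPKM in the proximal libraries (log2 fold change 2.90 ± 0.50 SE, adjusted p = 0.000383). Pnliprp2, a lipase, averaged 75.3 ± 32.4 FPKM in distal and 5.1 ± 2.57 FPKM in proximal organoids (SD, n = 3; log2 fold change 3.65 ± 0.63 SE). Of 27 PPAR target and fatty acid oxidation genes 7 were higher and 4 lower, and 6 and 4 without proximal replicate 1, in all not far from the 33.1% of all genes called. Plin2, a lipid droplet coat protein, had 93.7, 75.6 and 84.3 FPKM in the distal libraries, against 21.3, 26.8 and 25.9 FPKM in the proximal libraries (log2 fold change 1.74 ± 0.31 SE, adjusted p = 0.000461). Acaa1b, a peroxisomal thiolase, averaged 0.964 ± 0.413 FPKM in distal and 8.97 ± 2.59 FPKM in proximal organoids (SD, n = 3; log2 fold change -2.33 ± 0.18 SE).

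Respiratory chain genes that were called were all higher in distal organoids, and their number depended on the libraries and the scaling. Over all genes the shares were 17.1% higher and 16.0% lower. Of 24 nuclear-encoded genes 18 were higher and 0 lower, with 13 higher without proximal replicate 1, 10 without distal replicate 1, 10 without distal replicate 2, 11 when scaled to summed reads and 6 in the fit of the 6 libraries alone. Ndufa1, a subunit of complex I, had 201, 196 and 121 FPKM in the distal libraries, against 73.1, 80 and 74.8 FPKM in the proximal libraries (log2 fold change 1.14 ± 0.23 SE, adjusted p = 0.00129). Sdhd of complex II averaged 298 ± 56.5 FPKM in distal and 162 ± 3.78 FPKM in proximal organoids, and Cox5b of complex IV averaged 107 ± 17.5 FPKM in distal and 58.9 ± 8.51 FPKM in proximal organoids (SD, n = 3). Only Ndufa1 among the called members differed by a log2 fold change over 1. Of the 13 genes encoded in mitochondrial DNA 12 were higher, and 11 without proximal replicate 1. The gene mt-Atp6, a subunit of the ATP synthase, had 273, 723 and 302 FPKM in the distal libraries, against 80.9, 63.5 and 58.6 FPKM in the proximal libraries (log2 fold change 2.53 ± 0.49 SE, adjusted p = 0.00104). mt-Co2, a subunit of complex IV, had 569, 549 and 629 FPKM in the distal libraries, against 86.2, 152 and 174 FPKM in the proximal libraries. All distal values of both lay above all proximal ones. The share of mitochondrial reads given above moves with these counts, and its part in them was not tested.

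Enzymes of xenobiotic metabolism were called in both directions, 13 higher and 12 lower of 39, and 12 and 12 without proximal replicate 1, against 17.1% higher and 16.0% lower over all genes. Besides Adh1 and Cyp4b1, Cyp2c68 had 91, 208 and 85.7 FPKM in the distal libraries, against 6.29, 7.32 and 8.11 FPKM in the proximal libraries (log2 fold change 3.85 ± 0.35 SE, adjusted p = 6.02e-07). Related genes stood on opposite sides: Cyp2c65 had means of 17.9 and 141 FPKM in distal and proximal organoids, Gsta4 had 349 and 1066 FPKM and Gstm1 had 67.5 and 20.4 FPKM, all called and named after their values were seen. The Cyp2c and Gsta genes have close copies, so the split of reads among them is uncertain. Of 21 brush border peptidases and transporters of peptides and amino acids 7 were higher and 7 lower, and 4 and 7 without proximal replicate 1. Slc15a1, the peptide carrier PEPT1, had 80.2, 76.2 and 62.6 FPKM in the distal libraries, against 5.06, 10.4 and 6.4 FPKM in the proximal libraries (log2 fold change 3.20 ± 0.19 SE, adjusted p = 5.88e-09). Slc36a1, a proton-coupled amino acid carrier, averaged 42.6 ± 23 FPKM in distal and 3.16 ± 0.163 FPKM in proximal organoids (SD, n = 3; log2 fold change 3.25 ± 0.26 SE). Xpnpep2, a membrane aminopeptidase, had 5.24, 1.5 and 0.564 FPKM in the distal libraries, against 28.6, 36.2 and 32.6 FPKM in the proximal libraries (log2 fold change -3.52 ± 0.37 SE, adjusted p = 3e-06).

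Genes better known from the small intestine or kidney were called in both directions. Cubn, the receptor of the vitamin B12 carrier, had 0.331, 0.255 and 0.349 FPKM in the distal libraries, against 6.9, 6.57 and 6.44 FPKM in the proximal libraries (log2 fold change -2.54 ± 0.10 SE, adjusted p = 4.83e-11). Sis, sucrase-isomaltase, had 0.0276, 0.0405 and 0.0291 FPKM in the distal libraries, against 3.55, 6.75 and 3.88 FPKM in the proximal libraries (log2 fold change -2.43 ± 0.17 SE, adjusted p = 4.66e-08). Both were near 0 in every distal library. Apoa4, an apolipoprotein of enterocytes, went the other way (7.93 ± 4.93 FPKM in distal and 0.665 ± 0.350 FPKM in proximal organoids; SD, n = 3; log2 fold change 2.29 ± 0.36 SE). Of the 7 tested genes of the small intestine list 2 were higher (Apoa4 and Slc5a1) and 3 lower (Sis, Alpi and Cubn), against 17.1% higher and 16.0% lower over all genes. Listed genes under the limit also went both ways. Lyz1 had 167 reads over the distal and 0 over the proximal libraries and Slc2a5 had 67 and 28, while Mmp7 had 12 and 20.

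The tested mucosal defence genes leaned to the distal side, with 9 higher and 1 lower of 14, from 28 listed. Over all genes 17.1% were higher and 16.0% lower. Without proximal replicate 1 the counts of the list were 7 and 1. Ccl28, a chemokine that draws antibody-secreting cells, had 20.8, 34.2 and 28.3 FPKM in the distal libraries, against 0.958, 0.774 and 1.05 FPKM in the proximal libraries (log2 fold change 3.88 ± 0.18 SE, adjusted p = 1.94e-10). Pigr, the receptor that carries IgA into the lumen, had means of 582 and 95.3 FPKM in distal and proximal organoids, and Lypd8, a protein that binds bacterial flagella, had a log2 fold change of 2.76 ± 0.36 SE. Both were called and were named after their values were seen. Ang4, an antimicrobial ribonuclease, stayed under the limit with 11 reads over the distal and 25 over the proximal libraries. Other listed genes under the limit went both ways. Reg3b had 0 reads over the distal and 54 over the proximal libraries and S100a9 had 1 and 12, while Nox1 had 59 and 10 and Itln1 had 23 and 5. Of 23 interferon and MHC genes 8 were higher and 0 lower, and 5 without either proximal replicate 1 or distal replicate 1. In all, the share of this list that was called was near the 33.1% of all genes. Oas1a, an antiviral sensor, had 41.1, 31.1 and 29.7 FPKM in the distal libraries, against 10.7, 21.9 and 17.4 FPKM in the proximal libraries (log2 fold change 1.03 ± 0.27 SE, adjusted p = 0.00759), while the calls of Ifi27 and Oas3 were lost without proximal replicate 1 (adjusted p = 0.0805 and 0.0616).

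Keratins and genes of the regenerating or fetal-like epithelium were lower where they were called. Counts in these lists are read against 17.1% higher and 16.0% lower over all genes. Of 8 tested keratins, from 18 listed, 0 were higher and 5 lower, with and without proximal replicate 1. Keratins under the limit went both ways. Krt13 had 119 reads over the distal and 9 over the proximal libraries, while Krt5 had 5 and 9 and Krt6a had 4 and 8. Krt7, a keratin of ducts that is low in mature colon, had 63.3, 39.7 and 110.2 FPKM in the distal libraries, against 263, 289 and 269 FPKM in the proximal libraries (log2 fold change -2.05 ± 0.39 SE, adjusted p = 0.000876). Krt23 averaged 5.27 ± 1.89 FPKM in distal and 31.4 ± 11.9 FPKM in proximal organoids and Krt18 averaged 298 ± 59.7 FPKM in distal and 800.1 ± 160.3 FPKM in proximal organoids (SD, n = 3; log2 fold changes -2.34 ± 0.28 and -1.42 ± 0.31 SE). Krt4 had 22.9, 26.4 and 128 FPKM in the distal libraries, against 455, 167 and 269 FPKM in the proximal libraries, and distal replicate 3 was the highest distal library for Krt4 and Krt7 alike. Of 21 regenerative genes 0 were higher and 7 lower, and 0 and 6 without proximal replicate 1. In all, the share called was near the 33.1% of all genes. Spp1, also listed, stayed under the limit with 67 reads over the distal and 6 over the proximal libraries. Ereg, an EGF receptor ligand, had 0.499, 0.556 and 1.33 FPKM in the distal libraries, against 9.27, 5.9 and 8.42 FPKM in the proximal libraries (log2 fold change -2.31 ± 0.21 SE, adjusted p = 6.98e-07), and Plaur, the urokinase receptor, had 6.53, 6.51 and 16.7 FPKM in the distal libraries, against 32.7, 27.5 and 28.6 FPKM in the proximal libraries (log2 fold change -1.61 ± 0.31 SE). The other 14 were not called, among them Ly6a and Clu, genes of injured and regenerating epithelium, with means of 512 and 689 FPKM for Ly6a and 142 and 98.3 FPKM for Clu in distal and proximal organoids, named after their values were seen. Of 16 BMP and TGF-beta genes 3 were higher and 6 lower, and 3 and 4 without proximal replicate 1. Tgfbi, a matrix protein named for its induction by TGF-beta, had 0.0546, 0.0801 and 0 FPKM in the distal libraries, against 4.62, 11.3 and 7.76 FPKM in the proximal libraries (log2 fold change -3.02 ± 0.21 SE, adjusted p = 3.03e-08). Bmp2, a ligand of differentiated surface cells, had 122, 85.9 and 77 FPKM in the distal libraries, against 21.9, 39.4 and 33.3 FPKM in the proximal libraries (log2 fold change 1.57 ± 0.35 SE, adjusted p = 0.00299), and Bmp8b averaged 9.37 ± 5.31 FPKM in distal and 27.6 ± 5.48 FPKM in proximal organoids (SD, n = 3; log2 fold change -1.56 ± 0.36 SE).

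**Figure D3:**
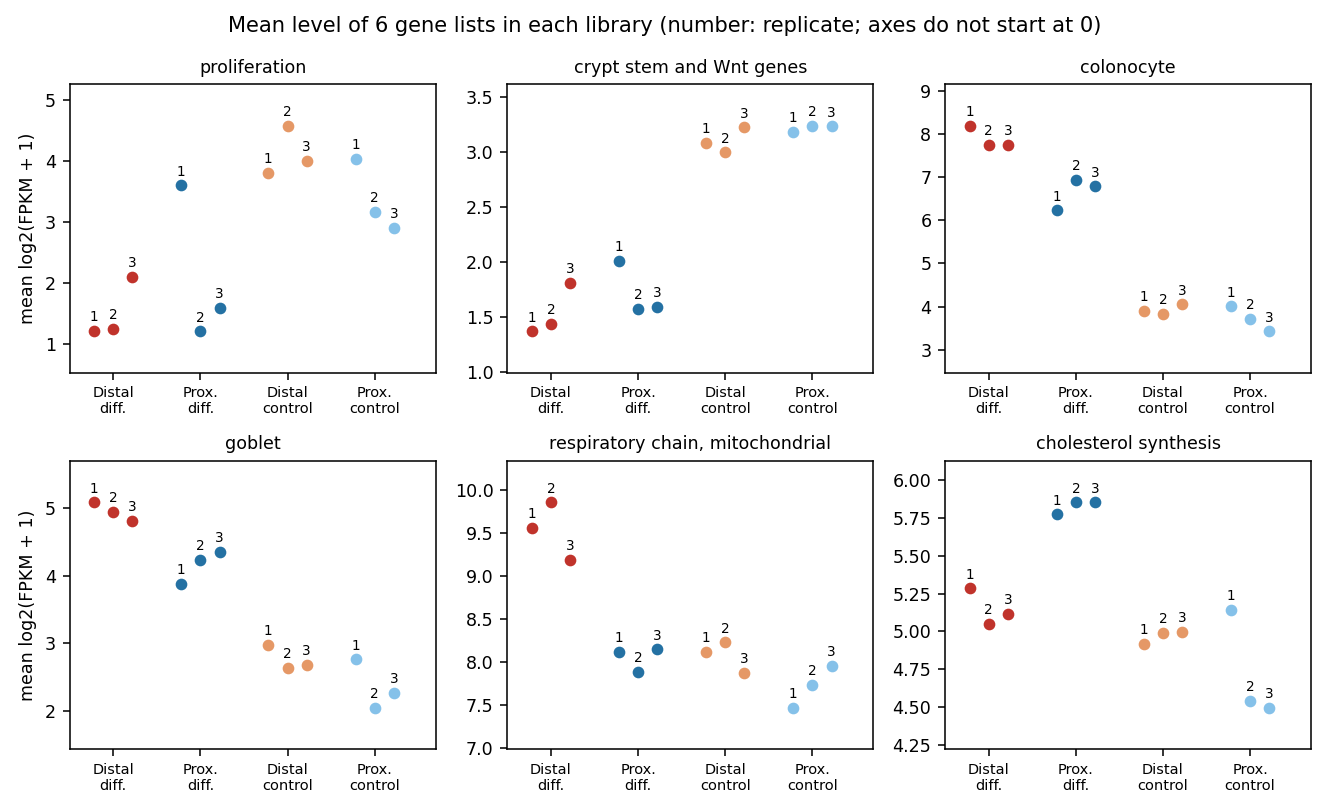
Mean log2(FPKM + 1) of 6 gene lists in each distal and proximal library of both media, with the replicate number above each point. Proximal differentiation replicate 1 lies at 3.60 for proliferation, with the control libraries, while cholesterol synthesis separates distal from proximal differentiation libraries with no overlap.

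Crypt and cycling cells could not be compared firmly. Lgr5, the marker of crypt stem cells, was under the limit, with 5 reads over the distal and 12 over the proximal libraries. Mki67, a nuclear protein of cycling cells, had 0.870, 0.865 and 4.15 FPKM in the distal libraries, against 12.6, 0.714 and 2.03 FPKM in the proximal libraries. The spread within each group was larger than the difference, and Mki67 was not called (log2 fold change -0.66 ± 0.59 SE, adjusted p = 0.425; 0.20 without proximal replicate 1). Of 14 tested proliferation genes 0 were higher and 1, Cdk1, was lower, and 1 and 0 without proximal replicate 1 (Cdk1 adjusted p = 0.196). Of 8 crypt and Wnt genes 0 were higher and 1, Lrig1, was lower (5.82 ± 1.37 FPKM in distal and 12.7 ± 3.78 FPKM in proximal organoids; SD, n = 3; adjusted p = 0.00141), and 1 and 3 without that library. Lists of general cell state were called at or below the 33.1% of all genes: of 20 endoplasmic reticulum stress genes 4 were higher and 1 lower (2 and 0 without proximal replicate 1), of 21 glycolysis and hypoxia genes 1 and 0 (0 and 1), and of 14 immediate early genes 4 and 0 (3 and 0).

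**Figure D4:**
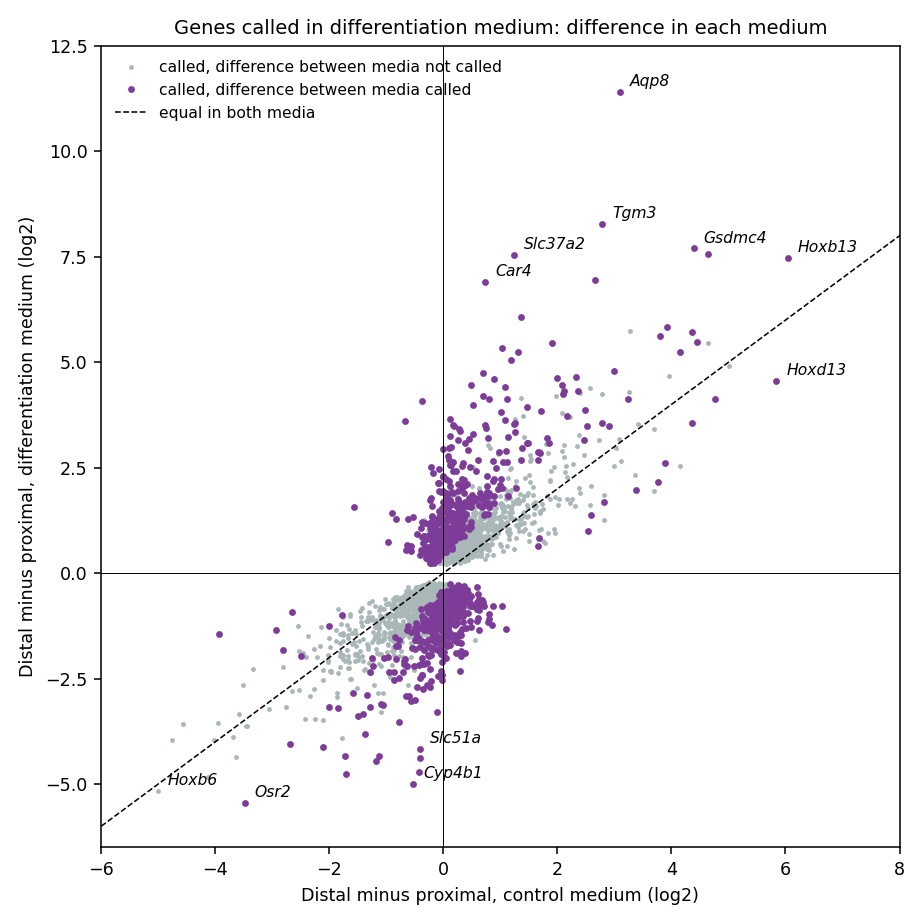
Distal minus proximal log2 fold change in control medium (horizontal axis) and in differentiation medium (vertical axis) for the 3731 genes called in differentiation medium, with purple points for genes whose difference also differed between the media and a dashed line where both are equal. Hoxb6 lies near the line, and Aqp8, Tgm3, Car4 and Slc37a2 lie far above it.

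The same regional comparison in control medium, which shares no libraries with the one above, called 1095 genes (9.73%), 573 (5.09%) higher and 522 (4.64%) lower in distal organoids. Both media called 780 genes, which is 20.9% of the calls in differentiation medium and 71.2% of those in control medium. Of these 780, 422 were higher and 339 lower in both, and 19 had opposite signs. The difference between the media was itself called for 997 genes (8.86%), 509 (4.52%) with a more positive and 488 (4.33%) with a more negative regional difference in differentiation medium. Without proximal replicate 1 it was called for 967 genes (8.59%), 435 (3.86%) more positive and 532 (4.73%) more negative. For 915 of the 997 the regional difference in differentiation medium was called too, and for 755 of these it was not called in control medium. The difference between the media was not called for 620 of the 780 genes called in both.

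Position genes differed in control medium too. Hoxb6 had a regional log2 fold change of -5.01 there (difference between media -0.15 ± 0.17 SE, adjusted p = 0.649), and Hoxb7 had -4.03 (adjusted p of the difference 0.8). Cdx2 had -2.03, against -2.11 in differentiation medium, and the difference between media was -0.079 ± 0.34 SE (adjusted p = 0.918). Hoxb13 averaged 65.9 FPKM in distal control organoids and was at 0 reads in proximal control organoids, and Hoxd13 averaged 57.9 FPKM with 0 reads in proximal control organoids. Relative to control medium, the regional difference on the log2 scale was larger for Hoxb13 (1.43 ± 0.24 SE, adjusted p = 0.00172) and smaller for Hoxd13 (-1.28 ± 0.23 SE, adjusted p = 0.0029), with a proximal level of 0 in both media.

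**Figure D5:**
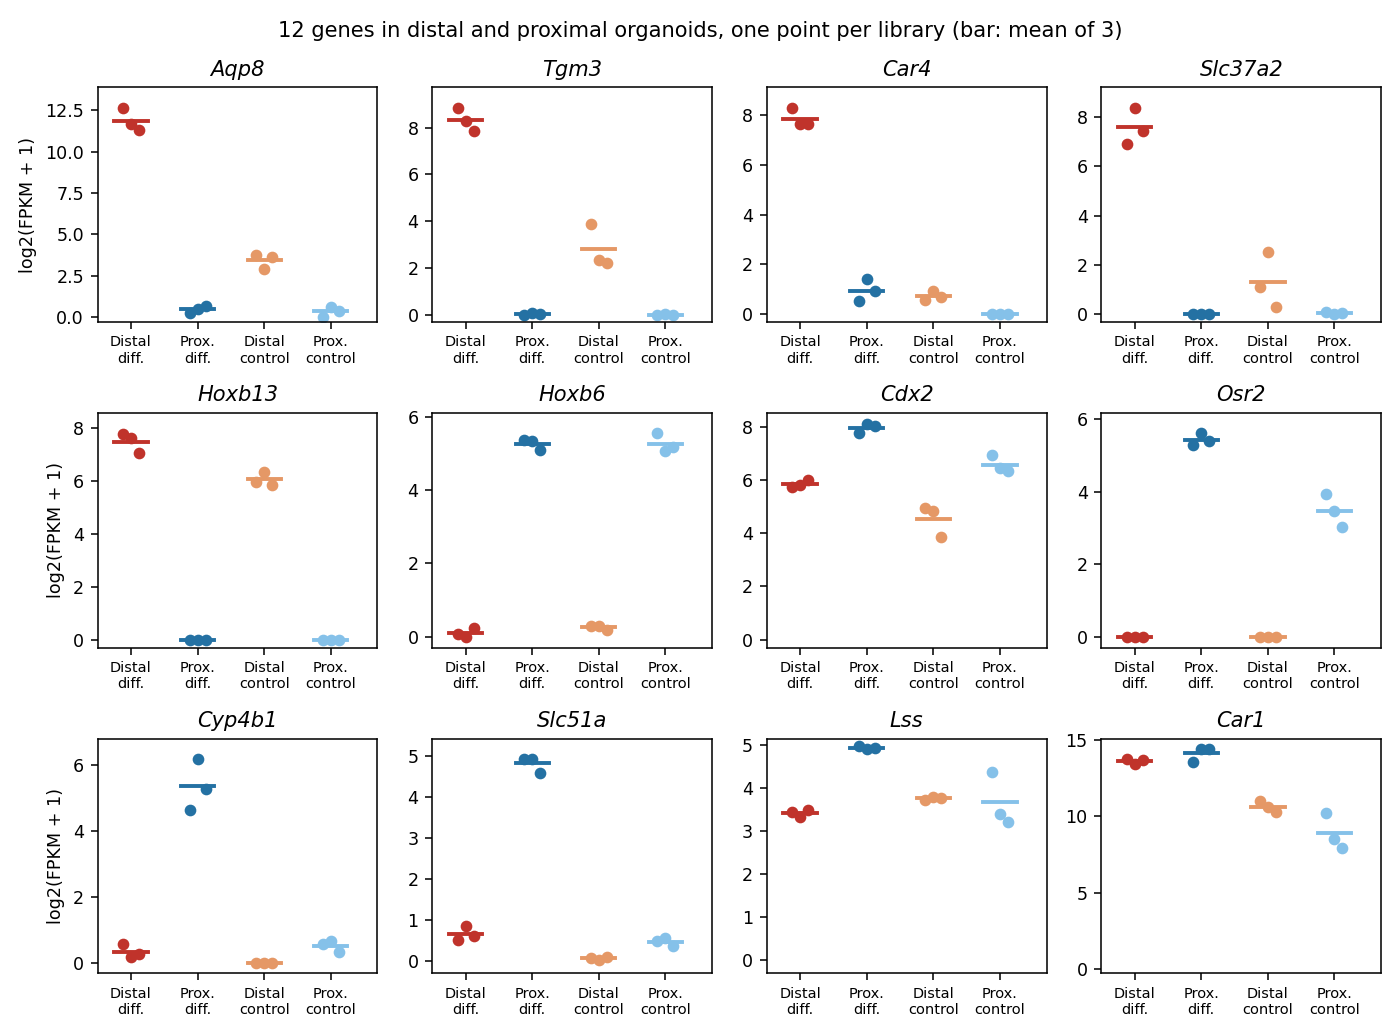
Levels of 12 genes as log2(FPKM + 1) in distal and proximal organoids of the differentiation (diff.) and control media, with 1 point per library and bars at group means. Hoxb13, Hoxb6, Cdx2 and Osr2 separate the regions in both media, while Car4, Slc37a2, Cyp4b1, Slc51a and Lss separate them mainly in differentiation medium.

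In the colonocyte list the difference between the media was called more positive for 8 of 26 genes and more negative for 3. The shares over all genes were 4.52% more positive and 4.33% more negative. For Slc26a3 the difference between the media was not called (2.23 ± 0.89 SE, adjusted p = 0.143). Among the genes named here, the largest positive differences between the media were those of Aqp8 (8.31 ± 0.45 SE, adjusted p = 3.76e-08), Slc37a2 (6.31 ± 0.57), Car4 (6.16 ± 0.39), Tgm3 (5.50 ± 0.47) and Slpi (4.72 ± 0.68). In control medium Aqp8 had 12.4, 6.56 and 11.5 FPKM in distal and 0, 0.527 and 0.302 FPKM in proximal organoids, a smaller difference that was still called (log2 fold change 3.10 ± 0.32 SE, adjusted p = 6.74e-06). Car4 had 0.501, 0.900 and 0.626 FPKM in distal and 0, 0 and 0 FPKM in proximal control libraries and was not called there (adjusted p = 0.12). The largest negative ones were those of Cyp4b1 (-4.47 ± 0.38 SE, adjusted p = 3.72e-06), Prl2a1 (-4.29 ± 0.45), Slc13a1 (-3.97 ± 0.33), Slc51a (-3.77 ± 0.18) and Defb37 (-3.27 ± 0.39). Slc51a averaged 0.0437 FPKM in distal and 0.382 FPKM in proximal control organoids, so of these 4 groups only proximal organoids in differentiation medium had it at a high level.

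Cholesterol synthesis genes had another balance in control medium. In control medium 4 of the 23 genes of this list were higher and 1 lower in distal organoids, against 0 and 15 in differentiation medium. The difference between the media was called more negative for 14 of the 23. Over all genes 5.09% were higher and 4.64% lower in control medium, and 4.33% had a more negative difference between the media. Lss averaged 12.6 FPKM in distal and 12.6 FPKM in proximal control organoids (difference between media -1.62 ± 0.30 SE, adjusted p = 0.0035). Car1 was higher in distal than in proximal control organoids, with 2105, 1535 and 1258 FPKM against 1170.5, 371 and 247 FPKM (1.75 ± 0.42 SE, adjusted p = 0.0143), and was not called in differentiation medium (difference between media -2.27 ± 0.59 SE, adjusted p = 0.0271). For nuclear-encoded respiratory chain genes the difference between the media was called for 0 of 24, and 2 were called higher in control medium. For the genes encoded in mitochondrial DNA the difference between the media was called more positive for 4 of 13, against 4.52% of all genes. It was more negative for 0, and 0 of these genes were called in control medium.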

How the data were processed

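Per the labels' protocols, RNA was extracted from organoids with the RNeasy kit, poly-A RNA was selected, and a provider prepared the libraries by a non-stranded or a strand-specific method, which no source used here settles. Per the submitters' processing notes, HISAT2 2.0.5, featureCounts 1.5.0-p3 and the mm39 build were used; no source used here names the annotation release. The authors deposited FPKM per gene for 18 libraries, 3 in each of 6 groups, together with their group means, which were not used. FPKM times gene length came out as whole multiples of 1 step per library (tolerance 0.001 read), which gave the reads and depths printed here; intervals and floors cover counting error only.

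Genes whose FPKM reached 1 in 3 or more of the 6 libraries compared were tested with limma 3.58.1 in R 4.3.3 on log2(FPKM + 1). The fit held all 18 libraries as 6 group means, with empirical Bayes variances that follow a trend, 12 residual degrees of freedom and Benjamini-Hochberg adjustment over 11258 genes (threshold 0.05, two-sided). The step was tested on simulated data for the distal against proximal comparison: of 200 genes changed among 11258, 83% were recovered at a log2 fold change of 1 and 97% at 2, with 10 false calls. The changed genes had a mean log2(FPKM + 1) above 2, all other genes had no difference, and the noise was independent between libraries. These rates need not hold for genes with low values or with a library that stands apart. Alternatives covered the pseudocount, the filter, the scaling, the libraries in the fit, library weights, voom on the recovered reads, a replicate block and leaving out each library.

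The genes named are the 12 largest rises and 12 largest falls among called protein-coding genes with a group mean of at least 5 FPKM and groups that do not overlap, the 5 largest such non-coding genes, the 3 largest called changes in each of 38 gene lists, the 5 largest differences between media in each direction, and 20 fixed genes, of which 17 were tested. Genes outside this rule were named after their values were seen. A few genes that meet it are not reported here. The genes compared and the lists were chosen with earlier results of these data known. Tables were handled in Python 3.11.15 with pandas 2.3.3, and promoter windows came from RefSeq (GRCm38.p6).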

Additional observations from a re-analysis of the deposited data

Results flagged for a closer look

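Each gene below had a regional difference (distal minus proximal) that itself differed between the media by the interaction term of the fit (adjusted p below 0.05), as did 997 genes in all. The number in brackets is the regional log2 fold change in differentiation medium minus that in control medium, so a positive one means that distal organoids stood higher relative to proximal organoids in differentiation medium. These values are on the log2(FPKM + 1) scale, and proximal differentiation replicate 1 enters all of them. Without that library the call was lost for Cdk1 (adjusted p = 0.0670), ENSMUSG00002075973 (0.0575), Adh1 (0.0573), Hsd11b2 (0.0554) and Insl5 (0.0526), and was kept for the other genes below.

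Among transporters, pumps and hydration enzymes the positive ones were Aqp8 (8.31), Slc37a2 (6.31), Car4 (6.16), Atp12a (4.29), Slc36a1 (3.14), Slc5a8 (2.53), Slc15a1 (2.41) and Slc9a3 (2.06), and the negative ones were Slc13a1 (-3.97), Slc51a (-3.77), Car1 (-2.27), Cubn (-2.51) and Car12 (-1.35). Aqp8 had the largest difference of all genes named. Among position genes and transcription factors, the differences were Hoxb13 (1.43), Hoxa13 (1.36), Creb3l3 (2.43) and ENSMUSG00002075973 (1.10) in the positive direction and Osr2 (-1.96) and Hoxd13 (-1.28) in the negative direction.

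Among genes of barrier, defence and hormones the positive ones were Tgm3 (5.50), Slpi (4.72), Saa1 (3.55), Mptx1 (3.53), Gsdmc4 (3.30), Ccl28 (1.38), Tac1 (2.79), Insl5 (1.84) and Fhl1 (1.91). Among the enzymes and lipid genes, Adh1 (2.93), Hsd11b2 (1.62), Nmnat3 (1.29), Plin2 (1.97), Baat (2.21), Cyp2c68 (2.15) and Apoa4 (2.29) were positive. The remaining genes were negative: Cyp4b1 (-4.47), Prap1 (-3.06), Prl2a1 (-4.29), Defb37 (-3.27), Bche (-3.21), Prkg2 (-2.60), Cdk1 (-1.89), Acaa1b (-1.63), Lss (-1.62), Xpnpep2 (-2.75), Tgfbi (-2.52) and Sis (-2.34).

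Groups of 3 libraries are too small for the test of a single outlying library, so none was run. The libraries of the mid colon entered the fit for its spread and were not compared here.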

How the results depend on the processing

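The number of genes called depended most on how the spread was estimated. With only the 6 libraries compared in the fit, 2084 genes were called, 1053 higher and 1031 lower, of which 2042 were among the 3731 called with all 18 libraries; that fit has 4 residual degrees of freedom, against 12. With array quality weights, 5656 genes were called, 2849 of them lower, with 2925 for the difference between media and 2678 in control medium; the cause was not tested. Leaving out each differentiation library in turn gave 2804 to 3873 called genes, 1466 to 2038 higher and 1338 to 1835 lower, with 609 to 1237 for the difference between media and 974 to 1260 in control medium; the 609 came without distal replicate 2. With the replicate number as a block, 3883 genes were called, 2008 higher and 1875 lower, with 1128 for the difference between media. Same-numbered distal and proximal libraries deviated from their group means with correlations of -0.41, -0.19 and -0.22 across genes. Deviations within a group cancel out by construction, so these correlations are not independent of each other. They cannot decide whether same-numbered distal and proximal samples are paired. Of the called genes 51.7% were higher in distal organoids as deposited and 37.2% when scaled to summed reads. The log2 fold change of Mki67, which was not called, lay between -1.29 and 0.20 when a library was left out, the last without proximal replicate 1. That of Krt20, also not called, lay between -0.29 and 0.050, with 0.034 without distal replicate 2 and 0.050 without proximal replicate 2. Among the called genes named, 9 lost the call without proximal replicate 1, 8 without distal replicate 1, 6 with only the 6 libraries and 4 when scaled to summed reads, with no change of sign.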

Other observations

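Among processed pseudogenes, copies of messenger RNAs without introns, distal organoids had 33 higher and 86 lower calls of 509 tested. The lower calls were near the 16.0% of all tested genes, and the higher calls were below the 17.1%. Long non-coding RNA genes had 77 higher and 55 lower of 441 tested, both not far from those shares. These classes were looked at after their values were seen, reads of a processed pseudogene can come from its parent gene, and the higher and lower counts also move with the scaling of the libraries.

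Of the genes called in both media, 19 had regional differences of opposite sign. Among the 31 genes called higher in distal organoids that had 0 reads in every proximal library were Hoxa9, Hoxa10, Hoxa13, Hoxb13 and Hoxd13. The reverse, called lower with 0 reads in every distal library, held for 13 genes, among them Osr2, Hoxb3 and Defb37. The Hox genes here were chosen after their values were seen.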
